A study of Mus musculus with 20 samples.

Results

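Lysyl oxidases and the enzymes and chaperone that prepare collagen for cross-linking were examined in the livers of mice with a fibrogenic diet. The set was a list of 10 gene symbols, namely Lox, Loxl1, Loxl2, Loxl3, Plod1, Plod2, Plod3, P4ha1, P4ha2 and Serpinh1. Of these 10 genes, 8 were measured by a probe set assigned to that gene alone, out of 22180 genes in the whole table. Loxl2 lay only on 2 probe sets shared with Gm21451, and Plod3 only on 1 probe set shared with Mir702, so neither has a value here. The data came from 20 livers of adult male mice on a mixed C57BL/6 and CBA background, 10 Bnc2 heterozygous and 10 WT, with 1 gene array per mouse. Heterozygous mice carried 1 copy of Bnc2 disrupted by a gene trap in every cell, not only in myofibroblasts, and WT mice were their littermates. All 20 mice had received for 7.5 weeks the CDAA-HFSC diet, which lacks choline and contains 35% sucrose, 21% fat and 2% cholesterol, so every value below is from a fibrogenic liver and none from a chow-fed one.

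Fibrillar collagen is modified in successive steps. In the endoplasmic reticulum, prolyl 4-hydroxylases, whose catalytic subunits are encoded by P4ha1 and P4ha2, hydroxylate prolines and so stabilise the triple helix, while lysyl hydroxylases (Plod genes) hydroxylate lysines. The chaperone HSP47, encoded by Serpinh1, binds the folded procollagen. After secretion, lysyl oxidases oxidise lysines of collagen and elastin, which then form the cross-links that stiffen fibrotic matrix. In injured liver, activated hepatic stellate cells are the main producers of fibrillar collagen. BNC2 is a zinc finger transcription factor found in myofibroblasts.

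Members of this family are also known outside fibrosis as genes induced by low oxygen (P4ha1, P4ha2, Plod2, Lox) or by heat (Serpinh1). Promoter sequence is therefore shown for the prolyl hydroxylases and for Serpinh1, from RefSeq on GRCm38.p6 and reading from 5′ to 3′ toward the transcript start that the sequence table uses. Capitals mark the letters ACGTG, the core of a hypoxia response element, and TTCNNGAA, the inverted repeat of a heat shock element, on either strand. For P4ha1 only 30 bases are printed, since the annotated gene begins upstream of them and the stretch lies inside it.
P4ha1, chr10:59323266-59323295, plus strand: ggtgtgacagagcgCACGTagcgagggctg
P4ha2, chr11:54100674-54100923, plus strand: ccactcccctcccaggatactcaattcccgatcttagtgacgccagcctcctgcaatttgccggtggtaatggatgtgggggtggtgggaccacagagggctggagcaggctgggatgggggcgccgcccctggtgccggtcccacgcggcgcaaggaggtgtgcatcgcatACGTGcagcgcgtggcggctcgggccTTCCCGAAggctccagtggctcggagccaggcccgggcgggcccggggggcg
Serpinh1, chr7:99353240-99353489, minus strand: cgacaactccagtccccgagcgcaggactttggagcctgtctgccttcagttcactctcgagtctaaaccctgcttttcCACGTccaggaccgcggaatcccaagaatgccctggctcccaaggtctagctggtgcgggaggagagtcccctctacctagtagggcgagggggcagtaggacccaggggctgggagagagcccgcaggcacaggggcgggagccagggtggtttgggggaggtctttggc
The hypoxia letters began 78 bases before the gene start of P4ha2 and 171 bases before that of Serpinh1. In P4ha1 they began 16 bases before the start of a transcript that is not the outermost one, so they lie downstream of the gene start. The heat shock letters occurred in the P4ha2 window, 52 bases before the start, and in none of the other member windows. Of the 10 members, 5 had a window of 250 bases, and 4 of these held ACGTG. Among all 32851 windows of that length in the table, 16.6% held ACGTG and 7.17% held TTCNNGAA. A match of letters is a description of the sequence and not a measured binding site.

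Array medians spanned 6.62 to 6.71. The values had already been scaled, so these medians do not test whether signal was alike on all arrays. Hepatocyte genes such as Alb were at the top of the scale. The mean of 17 stellate cell and myofibroblast markers was 10.56 in Bnc2 heterozygous and 10.74 in WT livers. Bnc2 itself averaged 5.41 ± 0.13 in heterozygous and 5.37 ± 0.25 in WT livers (SD, n = 10 each), a level at which this probe set does not check the genotype labels. A yardstick for weak signal was taken from 1105 olfactory receptor genes, which are mostly silent in liver, and 95% of them averaged under 6.99. Lox, Loxl1 and P4ha2 averaged under this level in both genotypes, whereas Loxl3, Plod1, Plod2, P4ha1 and Serpinh1 averaged above it. In 4 arrays (heterozygous mice 9 and 10, WT mice 4 and 6) the values were spread least. The SD of the values was 3.05 to 3.136 on these arrays and 3.137 to 3.22 on the others. The cut lay at no gap, since WT mouse 4 had 3.136 and the next array, heterozygous mouse 3, had 3.137.

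Lox and Loxl1 were the members with the largest deficits in heterozygous livers, at about 0.66 and 0.73 times the WT level, yet no member passed the threshold after adjustment over all genes. Both averaged under the yardstick for weak signal in both genotypes, with 5 and 4 of 20 mice above it, so these folds are not exact and their order against members of higher signal is uncertain. Of the 8 measured members, 5 were lower in heterozygous livers (49% of all genes were), and the median difference was -0.17 on the log2 scale against 0.003 over all genes. At an unadjusted p under 0.05, 2 of 8 members were lower and 0 were higher, where 3.63% of all genes were lower and 2.78% higher by the same rule. After Benjamini-Hochberg adjustment over 22180 genes, limma called 0% of genes and none of the members, whose adjusted p ran from 0.591 to 0.976. The genotypes overlapped for every member. Since RNA came from whole liver, fewer cells of a type and less RNA per cell cannot be told apart in these values.

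**Figure D1:**
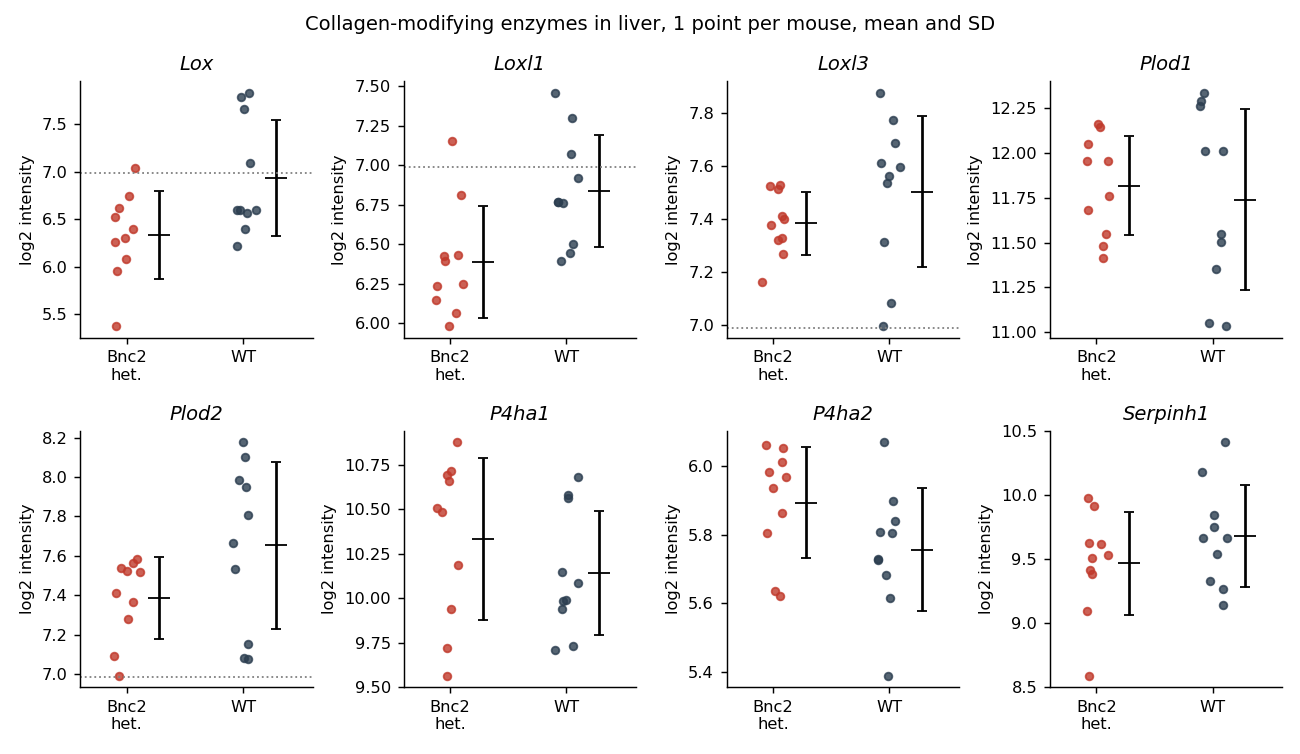
Log2 intensity of the 8 measured genes in each of 10 Bnc2 heterozygous (left, red) and 10 WT livers (right, dark blue), with mean and SD as bars and, where it falls in range, the dotted level of 6.99 under which 95% of olfactory receptor genes lie. Each panel has its own axis. Lox and Loxl1 reached higher values in WT livers, while Loxl3, Plod1 and Plod2 were spread more widely in WT than in heterozygous livers.

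Lox, the founding lysyl oxidase, ranged over 5.37, 6.35 and 7.04 (lowest, median and highest log2 value) in heterozygous livers and over 6.21, 6.60 and 7.83 in WT livers. WT mice 2, 3, 5 and 9 lay above every heterozygous mouse, and 9 of 10 heterozygous mice lay under the WT mean. The mean was 6.33 ± 0.46 in heterozygous and 6.93 ± 0.61 in WT livers (SD, n = 10 each). The difference was -0.60 on the log2 scale (SE 0.22), or 0.658-fold with a 95% interval of 0.478 to 0.905. Its unadjusted limma p was 0.0123, the permutation p was 0.0233 (two-sided), and the adjusted limma p was 0.627. Only 1 heterozygous and 4 WT mice exceeded the yardstick of 6.99.

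Loxl1, a lysyl oxidase best known for elastic fibres, showed the lowest p of the members. Its lowest, median and highest log2 values were 5.98, 6.32 and 7.15 in heterozygous livers and 6.39, 6.77 and 7.46 in WT livers. There were 5 heterozygous mice below every WT mouse, while heterozygous mice 5 and 6 lay among the WT mice at 6.81 and 7.15. The means were 6.39 ± 0.36 in heterozygous and 6.84 ± 0.36 in WT livers, a difference of -0.45 (SE 0.15) or 0.733-fold (0.592 to 0.907). The unadjusted limma p was 0.00629, the permutation p 0.0126 and the adjusted limma p 0.591. When each mouse was left out in turn, the Loxl1 difference stayed between -0.53 and -0.38 and that of Lox between -0.68 and -0.50.

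Loxl3, the remaining measured lysyl oxidase, differed by -0.12 (SE 0.10, adjusted limma p = 0.904). Its log2 values ran from 7.16 over a median of 7.39 to 7.53 in heterozygous livers, inside the WT range of 6.99 over 7.58 to 7.88. All 10 heterozygous mice thus lay between the WT extremes, and 7 WT mice lay above the highest of them. The SD was 0.12 in heterozygous and 0.29 in WT livers.

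Among lysyl hydroxylases, Plod2 was lower in heterozygous livers without passing any threshold and Plod1 was nearly level. Plod2 hydroxylates lysines in the telopeptides, the ends of collagen where cross-links of fibrotic tissue form. It had log2 values of 6.99, 7.47 and 7.58 (lowest, median, highest) in heterozygous livers and 7.08, 7.74 and 8.18 in WT livers. All 10 heterozygous mice lay under the WT mean, and 6 WT mice lay above the highest heterozygous one, while WT mice 4, 5 and 6 sat near the bottom of the range. The means were 7.39 ± 0.21 in heterozygous and 7.65 ± 0.42 in WT livers, a difference of -0.27 (SE 0.14, unadjusted limma p = 0.0705, adjusted p = 0.808). Without WT mouse 4, 5 or 6 the unadjusted limma p was 0.0295, 0.0227 or 0.0228. With any other single mouse left out, this p lay between 0.0614 (without heterozygous mouse 4) and 0.142 (without WT mouse 9). The low values thus came only from removing WT mice near the bottom of the range.

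Plod1, which hydroxylates lysines of the collagen helix, had log2 values of 11.42, 11.86 and 12.16 in heterozygous livers and 11.03, 11.78 and 12.34 in WT livers. The difference was 0.08 (SE 0.17, adjusted limma p = 0.976), with a 95% interval of -0.27 to 0.43. WT mice held both extremes, and the SD was 0.28 in heterozygous and 0.51 in WT livers.

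Among the measured members, the prolyl hydroxylase subunits had differences above 0 and the lysyl oxidases had differences below 0. Outside the members, the lysyl oxidase Loxl4 (0.11) and the subunit P4ha3 (-0.03) lay on the other side. The limma intervals of Loxl3, P4ha1 and P4ha2 included 0, so an opposition between the gene classes is not shown. P4ha1, the main catalytic subunit in most tissues, had log2 values of 9.57, 10.50 and 10.88 in heterozygous livers and 9.71, 10.04 and 10.68 in WT livers. Its difference was 0.19 (SE 0.17, adjusted limma p = 0.912). P4ha2 had values of 5.62, 5.95 and 6.06 in heterozygous and 5.39, 5.77 and 6.07 in WT livers, all under the yardstick for weak signal. Its difference was 0.14 (SE 0.08, unadjusted limma p = 0.101), and 8 of 10 heterozygous mice lay above the WT mean. Neither P4ha1 nor P4ha2 passed the threshold in either direction.

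Serpinh1, the collagen chaperone, had log2 values of 8.59, 9.52 and 9.98 in heterozygous livers and 9.14, 9.67 and 10.41 in WT livers. Heterozygous mice 7 and 10 lay below every WT mouse and WT mice 2 and 3 above every heterozygous mouse, with the other mice intermixed. The means were 9.47 ± 0.40 in heterozygous and 9.68 ± 0.40 in WT livers, a difference of -0.21 (SE 0.17, adjusted limma p = 0.893).

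**Figure D2:**
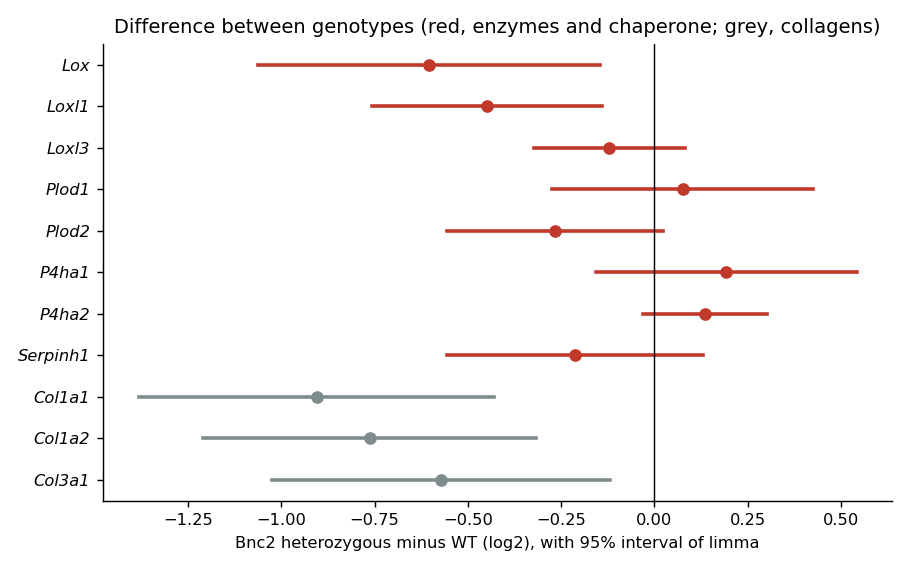
Difference between genotypes (Bnc2 heterozygous minus WT, log2) with its 95% limma interval for the 8 members (red) and for 3 fibrillar collagens (grey). The intervals of Lox, Loxl1 and the collagens lie below 0, those of the other 6 members include 0.

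The substrates were compared with the enzymes. Col1a1, the larger chain of type I collagen and the marker of fibrosis in the study, averaged 11.54 ± 0.59 in heterozygous and 12.44 ± 0.54 in WT livers. Its difference was -0.91 (SE 0.23), or 0.534-fold, with an unadjusted limma p of 0.000693 and an adjusted p of 0.459. Col1a2, the partner chain, differed by -0.76 (0.589-fold) and Col3a1, type III collagen, by -0.57 (0.673-fold), with adjusted limma p of 0.506 and 0.638. The folds of Lox and Loxl1 are not ranked against these, since both averaged under the yardstick for weak signal and the collagens far above it. A fit of each gene minus Col1a1 in the same liver placed 6 of 8 members, all but Lox and Loxl1, above Col1a1 at an adjusted p under 0.05. However, 98.5% of all genes passed that test, so the count says nothing particular to the members. Lox differed from Col1a1 by 0.30 (95% interval -0.25 to 0.86) and Loxl1 by 0.46 (-0.10 to 1.01). The SE of this fit was 0.283 for every member, so these intervals do not measure the spread of the single gene. The permutation p of the difference from Col1a1 was 0.117 for Lox and 0.0975 for Loxl1.

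Heterozygous livers were also more alike than WT livers for several members. The SD in heterozygous mice was under 0.9 times that in WT mice for 5 of 8 members, against 39.7% of all genes. Loxl1 and Serpinh1 were level (ratios of 0.999 and 1.00), and P4ha1 was more variable in heterozygous mice. The ratio of the SD in heterozygous to that in WT mice was 0.413 for Loxl3, 0.486 for Plod2 and 0.547 for Plod1, and these ranked at the 1.29th, 3.23rd and 5.96th percentile of all genes. Lox (0.755) and P4ha2 (0.892), also under the limit of 0.9, ranked only at the 23.1st and 39.0th percentile. WT mouse 6, whose array had the least spread, held the lowest Loxl3 value (6.99) of all 20 livers. The median ratio was 0.824 over members and 0.993 over all genes, and no test of this spread was made. WT mice 2, 3 and 9 had the 3 highest values of Lox and of Loxl3 among all 20 livers.

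Whether the enzymes follow collagen from mouse to mouse was then asked, with the genotype means taken out. Lox and Serpinh1 followed Col1a1 more closely than almost all genes, though not past the threshold after adjustment, whereas the other 6 members had correlations between -0.34 and 0.28. For Lox, Pearson's r over 20 mice was 0.73 (permutation p = 0.00028) and Spearman's rho 0.645 (p = 0.00227), which ranked at the 99.9th percentile of all genes. It was 0.822 within heterozygous and 0.677 within WT mice (n = 10 each). Lox changed by 0.70 log2 units per log2 unit of Col1a1 (SE 0.15), with an unadjusted limma p of 0.000102 and an adjusted p of 0.157. For Serpinh1, r was 0.632 (permutation p = 0.00324) and rho 0.543 (p = 0.0164), at the 99.6th percentile, with 0.712 within heterozygous and 0.546 within WT mice. Its slope was 0.45 (SE 0.13, adjusted limma p = 0.443). Without WT mouse 3 and heterozygous mouse 10, the mice farthest out in Col1a1, r was 0.567 for Lox and 0.407 for Serpinh1.

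By the rule of an adjusted p under 0.05 over all other genes, 0.018% of genes had a positive slope on Col1a1, and no member was among these 4 genes, which were Col1a2, Col3a1, Col4a2 and Gpx8. At an unadjusted p under 0.05, 2 of 8 members had a positive slope, against 3.65% of all genes. The number of genes passing was 2 without WT mouse 2 or heterozygous mouse 3, 7, 8 or 10, and 7 without WT mouse 3, in each case without a member. Loxl1, in spite of its difference between genotypes, had r = 0.256 (permutation p = 0.286, rho 0.226). Plod2 had r = 0.28 over all mice, with 0.687 in heterozygous and 0.098 in WT mice, but the slopes of the genotypes differed by 0.16 (SE 0.26, adjusted limma p = 1.00). Plod1 had r = -0.338 (permutation p = 0.146), Loxl3 0.164, P4ha1 0.071 and P4ha2 0.043. No gene, member or not, passed the test of a difference between slopes, which 3.48% of genes reached at an unadjusted p under 0.05.

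**Figure D3:**
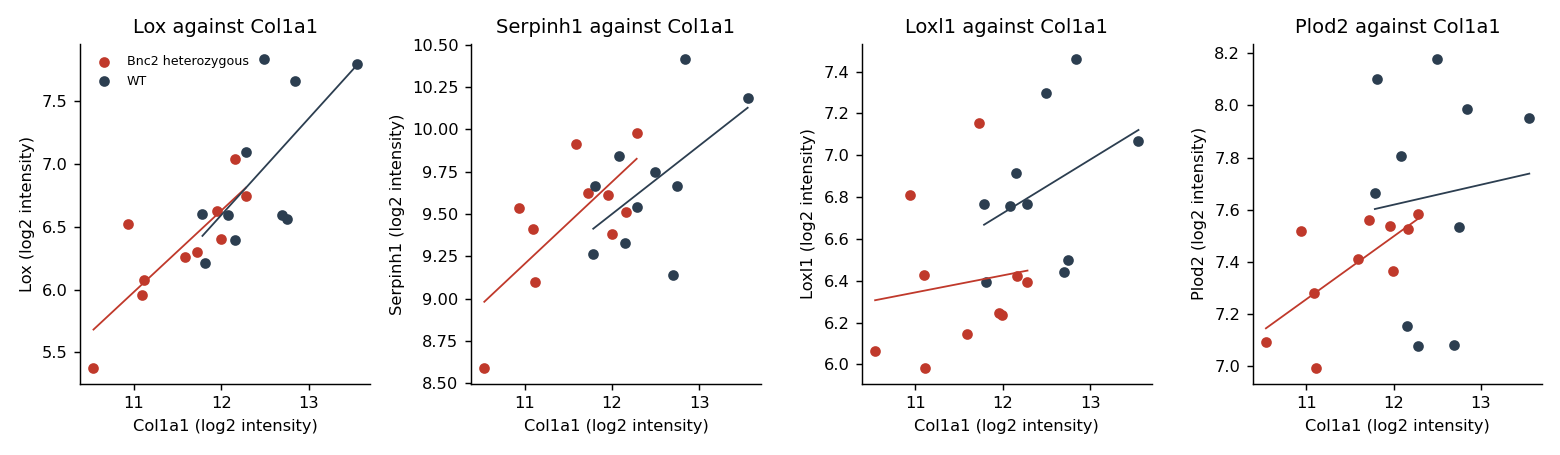
Log2 intensity of Lox, Serpinh1, Loxl1 and Plod2 against that of Col1a1, 1 point per liver, with Bnc2 heterozygous mice in red, WT mice in dark blue and a least-squares line for each genotype. The Lox lines of both genotypes nearly continue each other, while the heterozygous line of Loxl1 lies under the WT line.

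Once Col1a1 was in the fit, the difference of Lox between genotypes was 0.03 (SE 0.21), compared with -0.60 without it. That of Loxl1 was -0.30 (SE 0.19, unadjusted limma p = 0.132), that of Plod2 -0.12 (SE 0.18) and that of Serpinh1 0.19 (SE 0.18). None of these passed the threshold. Col1a1 itself was lower in heterozygous livers, also without passing it (adjusted limma p = 0.459).

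Col3a1, among several anchors tried beside Col1a1, gave a closer match than Col1a1, on which no member passed. Both Lox (r = 0.817, permutation p = 8e-05, rho 0.746) and Serpinh1 (r = 0.821, permutation p = 4e-05, rho 0.779) passed the threshold over all genes, with adjusted limma p of 0.0104 and 0.0131, where 0.0586% of genes passed with a positive slope. Lox changed by 0.83 (SE 0.13) and Serpinh1 by 0.61 (SE 0.10) log2 units per log2 unit of Col3a1. Without the 2 mice farthest out, r was 0.705 for both genes. The adjusted p of these calls without single mice or without the arrays of least spread is not given here. Within genotypes r was 0.746 in heterozygous and 0.909 in WT mice for Lox, and 0.863 in heterozygous and 0.777 in WT mice for Serpinh1. Plod2 (r = 0.527, adjusted limma p = 0.397) and Loxl1 (r = 0.45, adjusted p = 0.503) did not pass. Loxl3 had r = -0.254 in heterozygous and 0.708 in WT mice, and the difference between these slopes was -0.46 (SE 0.16, unadjusted limma p = 0.0103, adjusted p = 0.999), where 4.03% of genes reached an unadjusted p under 0.05. Against Col1a2, no member passed (0.0135% of genes did with a positive slope), and Lox came closest (slope 0.80, adjusted limma p = 0.0915).

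The members were also set against the mean of the 17 stellate cell and myofibroblast markers, none of which is a member. This comparison was chosen after the data had been seen. Plod2 followed this mean most closely, with r = 0.814 (permutation p = 2e-05), rho 0.832 and a slope of 1.71 (SE 0.30, adjusted limma p = 0.00976). For Plod2, r was 0.805 within heterozygous and 0.876 within WT mice, and the slope in heterozygous minus that in WT mice was -1.20 (SE 0.55, unadjusted limma p = 0.0408, adjusted p = 0.792). The slope of Loxl3 differed by -1.20 (SE 0.56, unadjusted p = 0.0441, adjusted p = 0.796), and 6.2% of all genes reached such an unadjusted p. Lox (r = 0.712, rho 0.708, adjusted limma p = 0.0342) and Serpinh1 (r = 0.713, rho 0.753, adjusted p = 0.0367) also passed, where 0.623% of all genes passed with a positive slope, and Loxl1 did not (r = 0.586, adjusted p = 0.128). Without heterozygous mouse 3 and WT mouse 6, the farthest out in this mean, r was 0.833 for Plod2, 0.673 for Lox and 0.752 for Serpinh1. Of the single markers, Plod2 went most closely with Tagln (r = 0.831) and Acta2 (0.794), which encode contractile proteins of myofibroblasts, and Lox with Pdgfrb (0.844), the receptor for platelet-derived growth factor on stellate cells. These 3 markers were picked for their high r. With Lox, 5 of the 17 markers had an r below 0, namely Ecm1 (-0.30), Thy1 (-0.21), Lrat (-0.04), Ngfr (-0.02) and Hand2 (-0.01), of which Lrat is a gene of quiescent stellate cells. With Plod2, the lowest r were those of Thy1 (0.072), Ngfr (0.075), Ecm1 (0.089) and Lrat (0.104). With Serpinh1, Ecm1 (-0.185) and Ngfr (-0.031) had an r below 0.

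Those calls were not equally firm. With the 4 arrays of least spread left out, the adjusted limma p was 0.169 for Plod2, 0.235 for Lox and 0.352 for Serpinh1. The call of Plod2 held without each single mouse. That of Lox was lost without WT mouse 2, 4 or 9 or heterozygous mouse 3, 8 or 10 (adjusted p 0.0505 to 0.0859), and that of Serpinh1 without WT mouse 2, 3, 4, 5, 6 or 9 or heterozygous mouse 4, 7 or 10 (0.0522 to 0.0909). The marker mean itself ran from 10.37 to 10.84 in heterozygous and from 10.50 to 10.998 in WT livers. Of its 17 genes, 13 were lower in heterozygous livers (49% of all genes were). At an unadjusted p under 0.05, 6 of the 17 were lower, against 3.63% of all genes. Whether fewer stellate cells take part in the lower Lox and Loxl1 values was not tested.

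**Figure D4:**
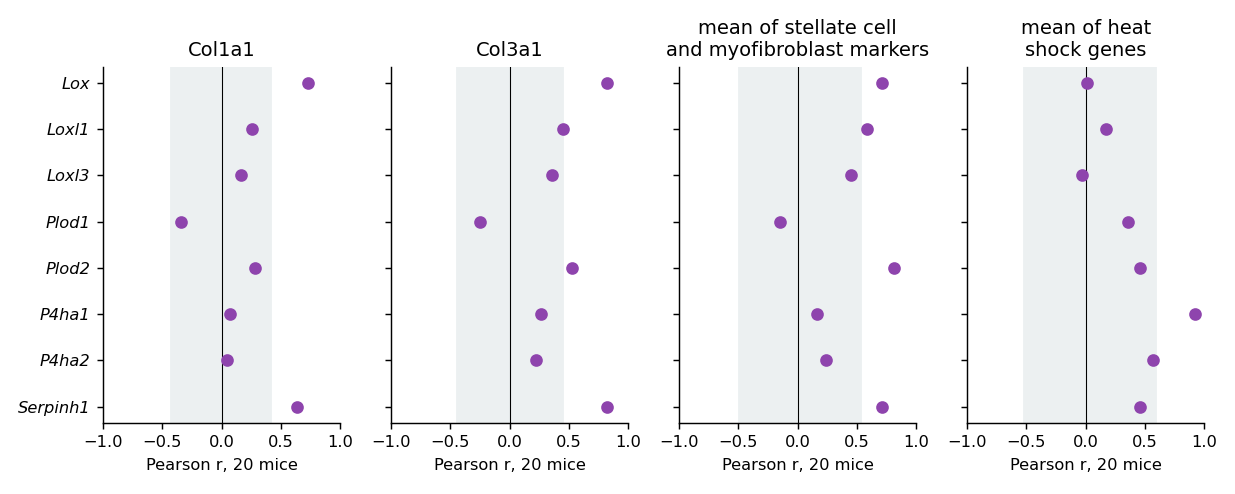
Pearson's r over 20 mice, with genotype means taken out, of each member with Col1a1, Col3a1, the mean of 17 stellate cell and myofibroblast markers and the mean of 11 heat shock genes. The grey band spans the 5th to the 95th percentile of r over all genes. Lox and Serpinh1 lie above it in the first 3 panels, Plod2 in those of Col3a1 and the stellate cell markers, Loxl1 in that of the stellate cell markers and, narrowly, of Col3a1, and P4ha1 only in the rightmost panel.

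P4ha1, with r of 0.071 to 0.264 for Col1a1, Col3a1 and the stellate cell markers, varied with heat shock genes. Against the mean of 11 heat shock genes its r was 0.92 and its rho 0.869 over 20 mice, each with a permutation p of 1e-05, the smallest that 100000 permutations can give. P4ha1 changed by 1.09 log2 units per log2 unit of this mean (SE 0.12, adjusted limma p = 0.000127), where 2.49% of all genes passed with a positive slope. The relation was 0.932 within heterozygous and 0.921 within WT mice, and 0.915 without WT mice 7 and 8. Among heterozygous mice, 9 and 10 were the lowest in both measures, and among WT mice, 7 and 8 were the highest in both. Of the single genes, P4ha1 went most closely with Hsph1 (r = 0.884), Hspa1b (0.849) and Dnajb1 (0.837), all chaperones or co-chaperones induced by stress.

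Serpinh1, itself known as a heat shock protein, had r = 0.462 with the same mean (permutation p = 0.0462, adjusted limma p = 0.195), and P4ha2 r = 0.571 (permutation p = 0.0109, adjusted p = 0.143). Neither passed, and no slope on the heat shock mean differed between the genotypes at an adjusted p under 0.05, nor that of any member at an unadjusted one. P4ha1 also rose with the spread of values on its array (adjusted limma p = 0.0193), as 7.21% of all genes did, and without the 4 arrays of least spread its relation to heat shock genes had an adjusted p of 0.0507. The part of array quality or of handling of the tissue in this relation was not tested. The heat shock mean was 11.06 in heterozygous livers (10.50 to 11.50) and 10.91 in WT livers (10.55 to 11.48). Of the 11 genes, 10 were higher in heterozygous livers, none at an unadjusted p under 0.05. The smallest p were those of Bag3, a co-chaperone (difference 0.32, limma p = 0.0534), and Hspe1, a mitochondrial chaperonin (0.12, p = 0.111). This comparison, too, was chosen after the data had been seen.

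**Figure D5:**
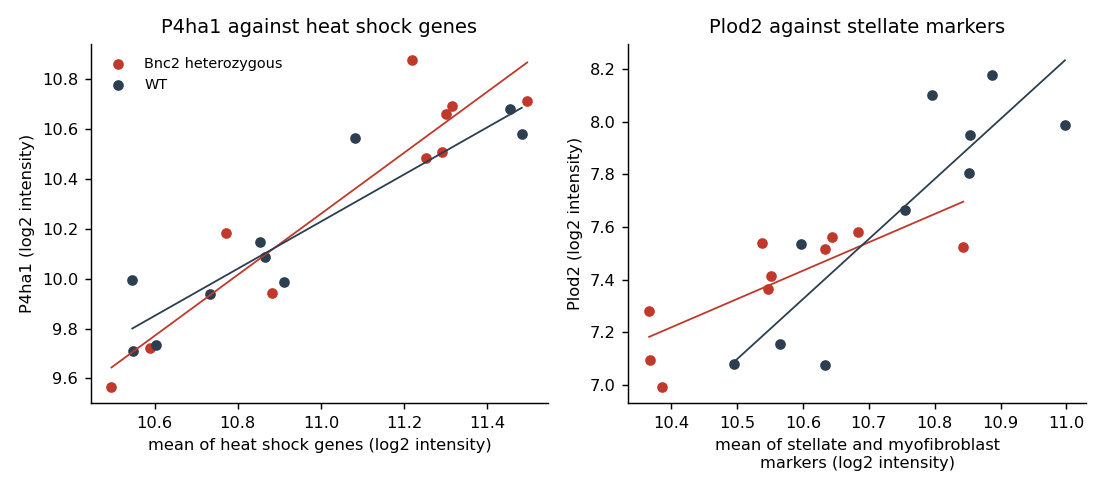
Log2 intensity of P4ha1 against the mean of 11 heat shock genes (left) and of Plod2 against the mean of 17 stellate cell and myofibroblast markers (right), 1 point per liver, with Bnc2 heterozygous mice in red, WT mice in dark blue and a least-squares line for each genotype. P4ha1 climbs along 1 line in both genotypes (r = 0.932 in heterozygous and 0.921 in WT mice).

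No member followed the mean of 18 genes induced by low oxygen, such as Vegfa and Pgk1, at an adjusted p under 0.05 (0% of all genes did with a positive slope). At an unadjusted p under 0.05 it was 1 of 8 members, against 6.01% of all genes, so this comparison says nothing particular to the members. The closest were Plod1 (slope 2.20, SE 1.04, adjusted limma p = 0.354) and Loxl3 (slope 1.23, SE 0.60, adjusted p = 0.370), whereas P4ha1 and Plod2 had adjusted p of 0.771 and 0.970. Bnc2 values, at their low signal, gave no call among members or any other genes (0%). Only Plod2 reached an unadjusted p under 0.05, and 5.78% of all genes did with a negative slope. Plod2 had a negative slope of -0.86 (SE 0.33, unadjusted limma p = 0.0165, adjusted p = 0.304).

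The members were also compared among themselves. Over the 28 pairs, the median r was 0.38 with a range of -0.30 to 0.69, against a median of -0.001 over all pairs of genes. An r over 0.5 was found in 9 of 28 pairs and in 3.13% of all pairs of genes. The closest pairs were Lox with Serpinh1 (r = 0.688), Plod2 with Serpinh1 (0.669) and Lox with Loxl1 (0.600), and all 3 pairs of lysyl oxidases exceeded 0.5. Plod1 stood apart, with no r above that with P4ha1 (0.394) and negative values with the lysyl oxidases, Serpinh1 and P4ha2. These are descriptions over 20 mice measured on the same arrays, without a test.

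The genes nearest to each member were sought among the 11085 other genes at or above the median level. They were picked for the highest r out of so many genes over 20 mice, so these r are inflated by that choice. None was tested. For Lox they were Pam, which amidates peptide hormones (r = 0.904), Pdgfrb (0.844) and Itgav, an integrin chain (0.839). For Serpinh1 Col3a1 stood second (0.821) after Ano8 (0.825), and for Loxl1 Mmp2, a gelatinase of stellate cells, stood second (0.773) after Kpna6 (0.776). For P4ha1 they were Trmt1l (0.890), Chordc1, a partner of HSP90 (0.888), and Foxk2 (0.887). Plod1 was nearest to Nicn1 (0.886) and Amt, of the glycine cleavage system (0.850), and Plod2 to Tm4sf4 (0.883). Loxl3 was nearest to Pcnt (0.824) and P4ha2 to Mettl2 (0.768).

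The wider pathway was counted in the same fit, in which 49% of all genes were lower in heterozygous livers. At an unadjusted p under 0.05, 3.63% of all genes were lower and 2.78% higher. Of 10 fibrillar collagen and elastin genes, 8 were lower in heterozygous livers, 3 of them (Col1a1, Col1a2 and Col3a1) at an unadjusted p under 0.05. Next came Col5a2, with -0.22 (p = 0.0600). Of 16 measured genes for other steps of collagen hydroxylation, glycosylation and folding, 11 were lower. Fkbp7, a prolyl isomerase of the endoplasmic reticulum, was lower by this rule (-0.24, SE 0.07, unadjusted limma p = 0.00324, adjusted p = 0.519), and P3h3, a member of the prolyl 3-hydroxylase family, was higher (0.16, SE 0.07, p = 0.0376, adjusted p = 0.756). Loxl4, the lysyl oxidase outside the 10 members, differed by 0.11 (p = 0.334), and P4hb, the subunit that joins P4ha1 or P4ha2 in the enzyme, by -0.03 (p = 0.676). Of 23 measured genes of procollagen export and propeptide processing, 12 were lower and none reached an unadjusted p under 0.05 in either direction. The smallest p there were those of Sparc, a collagen-binding matricellular protein (-0.27, p = 0.0611), and Tfg, of export sites (0.19, p = 0.0692). Of the 18 hypoxia genes, 11 were lower in heterozygous livers and the others higher. At an unadjusted p under 0.05, 0 were lower and 1, Egln3, was higher (0.28, p = 0.0353).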

How the data were processed

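Liver RNA of 20 mice had been hybridised to MoGene 2.0 ST arrays. The deposited log2 values were made by the authors with Affymetrix Power Tools (correction for GC content, scaling, then RMA summarisation per core gene). The tool's version and the genome build of the array annotation are not given in the sources used here. Of 41345 probe sets, 23521 carry 1 gene symbol, 1820 several and 16004 none. Probe sets of 1 symbol were averaged per gene (22180 genes, no filter). On 14 arrays some probe sets share a maximum of 19.9, and no member came near it (highest value 12.3).

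Genotypes were compared with limma 3.58.1 (lmFit, eBayes) in R 4.3.3 as Bnc2 heterozygous minus WT, without covariate, with Benjamini-Hochberg adjustment over all genes and a threshold of 0.05. Relations between mice were fitted in limma with genotype as a term, and r was computed on genotype-centred values. Permutation tests were two-sided with 100000 permutations, within genotype for correlations. The relation of each of 8 members was computed for each anchor, and adjusted p-values are over all genes. Each label is a separate mouse, so p-values measure the spread between mice, and precision is limited by how many arrays there are. The limma fit of each gene minus Col1a1 is an exception, since its SE was the same for all 8 members. The fits were tested on simulated data.

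The members and gene lists were chosen with earlier results of these data known. Named genes were the members, Bnc2, the type I and III collagen genes, up to 4 genes per pathway list with the smallest p, and up to 3 genes of highest r per member. Others (Hsph1, Hspa1b, Dnajb1, Tagln, Acta2, Loxl4, P4hb, Vegfa, Pgk1 and Alb) were named after their values were seen or as context. Alternatives covered normalization, centring, a filter on dim genes, probe set choice, eBayes settings, array weights, a replicate block, other anchors and each mouse left out.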

Additional observations from a re-analysis of the deposited data

How the results depend on the processing

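Lox and Loxl1 stayed lower, at an unadjusted p of at most 0.0277 and 0.0218, in every setting that kept them. Under the filter at the median level both were removed as dim, leaving 0 members at an unadjusted p under 0.05 and 3 lower. Without the 4 arrays of least spread (chosen after seeing the data), 4 members reached it, Loxl3 and Plod2 being added, and 2 genes were related to Col1a1. The share of all genes at that p is not given for this setting, so the count of 4 says nothing particular to the members. With each mouse left out, 2 to 3 members reached an unadjusted p under 0.05 and 5 to 6 were lower. Also, 2 to 7 genes were related to Col1a1, and 5 to 6 members differed from it. No genes were called between genotypes in any setting. The count of genes related to Col1a1 was 19 without a genotype term, with 1 member (Lox), and 14 with Col3a1 in its place, with 2 members (Lox and Serpinh1).

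The replicate numbers shared by the genotypes did not pair the mice, since the same-number correlation ranged from -0.172 to 0.166 and 2 of 10 heterozygous mice correlated best with the WT mouse of their number. With the replicate block, 2 members reached an unadjusted p under 0.05 and 0 genes were related to Col1a1, r with Col1a1 was 0.43 for Lox and 0.47 for Serpinh1, and the sign turned for Loxl1 (-0.29), Plod1 (0.34) and P4ha2 (-0.26).

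Other signs turned only among weak values. The r with Col1a1 became -0.0246 for P4ha2 with quantile normalization. For P4ha1 and P4ha2 it became -0.104 and -0.221 without a genotype term, -0.068 and -0.0577 with the first principal component, -0.0451 and -0.0436 by rank, and -0.0971 and -0.116 without those 4 arrays. It ranged from -0.172 to 0.161 and from -0.148 to 0.173 with a mouse left out. The Plod1 difference was -0.07 without the 4 arrays and ranged from -0.0022 to 0.14 with a mouse left out. The stellate marker calls of Lox, Plod2 and Serpinh1 were lost with the first principal component as a covariate (adjusted p 0.278, 0.252 and 0.444), and those of Lox and Serpinh1 with quantile normalization (0.0805 and 0.0950), whereas that of P4ha1 with heat shock genes held in both. The cause of these changes was not tested.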

Other observations

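Markers of other liver cells were counted in the same fit, as values beside the lower Lox and Loxl1. For comparison, 49% of all genes were lower in heterozygous livers, and 3.63% were lower at an unadjusted p under 0.05. Of 10 portal fibroblast and mesothelial markers, 8 were lower in heterozygous livers, 3 of them at an unadjusted p under 0.05, with a median difference of -0.15. Of 7 Kupffer cell markers, 6 were lower (2 at that p, median -0.38), and of 9 T and NK cell markers, 8 were lower (3 at that p, median -0.20). Of 7 vascular smooth muscle markers, 1 was lower (0 at that p in either direction, median 0.04), and of 11 sinusoidal endothelial markers 9 were lower (0 at that p in either direction, median -0.08). Of 9 recruited macrophage markers, 8 were lower (3 at that p, median -0.10), and of 7 cholangiocyte and progenitor markers all 7 (0 at that p, median -0.10). Of 12 hepatocyte markers, 7 were lower (1 at that p, median -0.002), of 5 B cell markers 4 (0 at that p, median -0.09) and of 8 neutrophil markers 6 (0 at that p, median -0.04). The red cell list had 1 measured gene, with a difference of 0.02. None passed the adjusted threshold, and the part of these cells in the member values was not tested.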
